A study of Glycine max with 5 samples.

Results

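Glutathione transferases (GSTs) join the thiol glutathione, or in soybean largely its relative homoglutathione, to reactive or foreign molecules, which can then be moved into the vacuole. In plants the tau and phi classes are the largest and are best known for herbicide breakdown and for answers to stress and hormones. The lambda class and the dehydroascorbate reductases (DHARs) carry a cysteine in the active site and act in thiol and ascorbate chemistry instead. The zeta class works in tyrosine breakdown, and theta enzymes can act as glutathione peroxidases.

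The GST genes of soybean (Glycine max) were followed here in root tips and in non-meristematic tissue of seedlings. A gene was a member when its symbol or a RefSeq synonym, with a leading Gm removed, began with GST, and when a probe set of the array stood for that gene alone. The rule gave 38 genes and 59 probe sets, out of 6031 genes and 8677 probe sets with 1 assigned gene. One of the 38, GSTIR, matched by its letters only, since its other name is GmTIR. It was kept apart, which left 37 genes on 57 probe sets, namely 26 tau, 4 phi, 3 lambda, 2 zeta, 1 theta and 1 DHAR gene. The RefSeq gene table holds 74 genes that meet the same naming rule, so the values describe the part of the family that the array names.

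The samples were untreated 10-day-old seedlings of the genotype Bragg, grown at 28 °C in potting mix without fertilizer. The root meristem group had 3 arrays of root tips of 0.5 mm, labelled root apical meristem. The non-meristematic group had 2 arrays, called leaf in one label field and the other parts of the plant in the protocol, so its makeup is not settled. The sample descriptions speak of embryos, against every other label, and were not used. The titles call the arrays biological replicates, and nothing says how many plants went into each, so p-values cover only how much these 5 arrays vary. In such whole-tissue RNA, fewer cells that express a gene and less of its RNA per cell cannot be told apart, and root against shoot cannot be told apart from dividing against mature tissue.

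Values are MAS5 signals, the brightness that Affymetrix software gives a probe set, on a linear scale. Each array's 25th percentile served as its background. It was 17.9 to 22.5 signal units in root meristem, and 37 (array 1) and 26.3 (array 2) in non-meristematic tissue. Tests covered the 30941 probe sets that exceeded background on 2 or more arrays. They compared log2 signals with limma, and passing meant an adjusted p below 0.05 (Benjamini-Hochberg over those probe sets) together with a log2 difference of 1 or more. Each gene was read from the brightest of its tested probe sets (by mean log2 signal). For a group without any array above background, the fold is only a lower bound. Spearman correlations across probe sets were 0.965 to 0.976 between root meristem arrays and 0.871 between the non-meristematic arrays. Tissue markers went with the labels for the most part: 4 of 5 leaf and chloroplast genes and 2 of 3 YABBY leaf identity genes were lower in root meristem, and the 3 measured division and root tip genes, PIN2A, H4 and PCNA, were higher. The remaining chloroplast gene, PSAD, had a brightest probe set that did not pass (log2 0.67 ± 0.13 SE) and dimmer ones that were lower. Rubisco activase RCAALPHA lay below background on every root meristem array (9.33 ± 3.0 SD, n = 3).

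The GST family split in both directions, and tau genes, which made up 25 of the 35 tested, changed in both directions. Of 35 tested genes, 11 were higher in root meristem, 7 were lower and 17 did not pass. Over all 5652 tested genes the same rule called 18.6% higher and 21% lower. Among the 11 higher genes, GSTU43 and GSTU16 had both non-meristematic arrays at or below background. The GSTU16 bound of 1.37-fold is under the minimum size of the rule. With signals below 16 set to 16, 10 GST genes were higher and 7 lower. The groups of arrays did not overlap at 26 of the 35 GST genes, against 70.4% of all genes. The median log2 difference was 0.55 over the GST genes against 0.20 over all tested genes, and -0.03 over the 54 GST probe sets against 0.07 over all probe sets. In 7 of the 35 GST genes 1 group lay at or below background, and with these at their bound, or at 0 without one, the median of the GST genes was 0.02. The median over all tested genes was not recomputed in this way, so 0.02 has no matching value. No shift of the family as a whole is read from these medians. Of the 25 tested tau genes 9 were higher and 6 lower. Of the 3 tested phi genes 2 were higher and none lower, and among the 7 genes of the other classes only DHAR3 passed, which was lower. By probe set, 15 of 54 were higher and 11 lower, against 14.4% and 18.1% of all tested probe sets, or 32.5% in either direction. The count of 11 higher genes fell to 6 when either root meristem array 1 or root meristem array 2 was left out. Part of this fall is GSTU16, which then exceeded background on 1 array only and was not tested. The count of lower genes was 7 or 8 with any single root meristem array left out. Without either non-meristematic array GSTU3 and GSTU5 went untested, since they exceeded background on those arrays only.

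**Figure D1:**
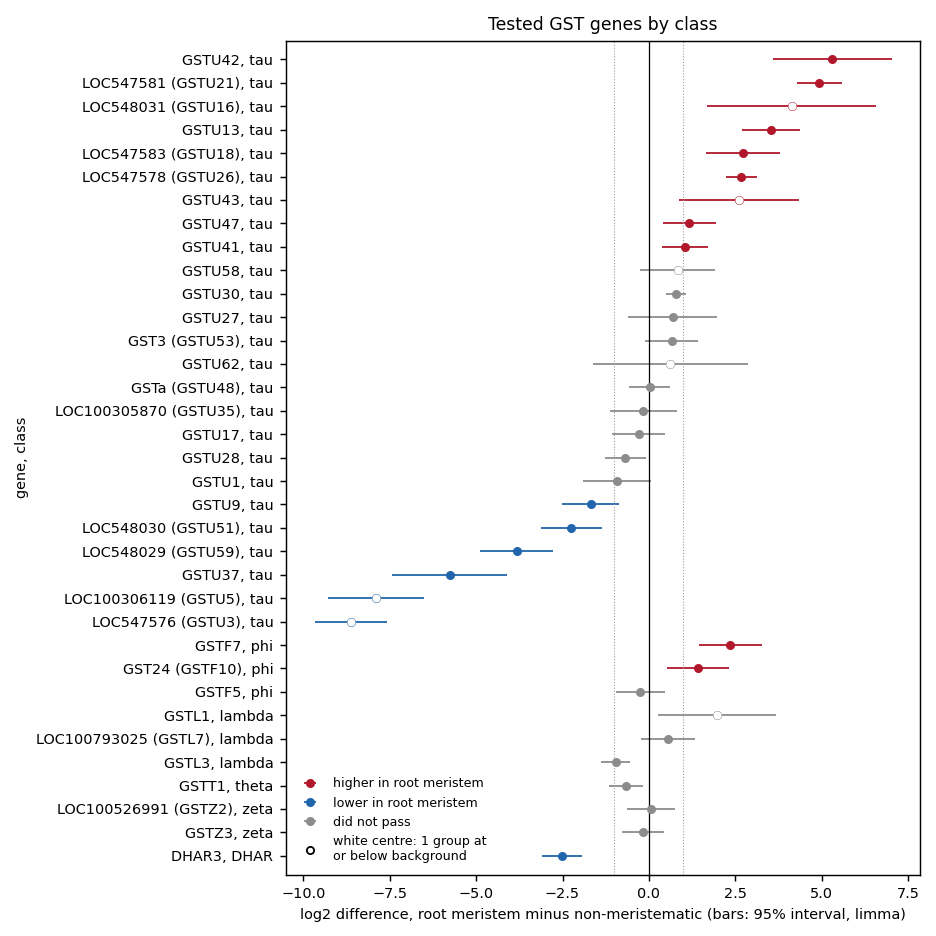
Log2 difference (root meristem minus non-meristematic, x axis) of the 35 tested GST genes by class, with the 95% interval from limma as bars and dotted lines at a difference of 1. White centres mark genes with 1 group at or below background, GSTU3 (at least 116-fold lower) among them, whose fitted value is no measured size. Points of zeta and theta genes lie within 1 of no difference.

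Among the tau genes that rose in root meristem, LOC547581 (GSTU21) was bright in root tips and close to background elsewhere. Its signals were 2028, 1960 and 1344 on root meristem arrays 1 to 3 and 49.3 and 66.2 on non-meristematic arrays 1 and 2, all above background. Every root meristem array thus lay far above both others, a 30.6-fold difference (log2 4.94 ± 0.27 SE, limma adjusted p = 7.56e-05). LOC547578 (GSTU26) gave 2080, 2402 and 1908 in root meristem against 354.8 and 309.7 in the other tissue, and was 6.40-fold higher (log2 2.68 ± 0.19, adjusted p = 0.000158). GSTU13 gave 975.8, 1306 and 1537 against 152.3 and 77.1 and was 11.5-fold higher (log2 3.53 ± 0.35, adjusted p = 0.000592). In none of these genes did the groups overlap, and each call held under all 16 alternative settings.

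GSTU42 had the largest fitted rise on the log2 scale among the 35 tested genes, and its root tip arrays spread widely. Its signals were 1998, 951.3 and 414.8 on the root tip arrays against 40.0 and 13.6 on the non-meristematic ones, where only array 1 lay above background. The groups stayed well apart, with a fitted 39.6-fold difference (log2 5.31 ± 0.72, adjusted p = 0.00201), although the root meristem arrays differed 4.82-fold among themselves. Non-meristematic array 2 entered at 13.6, below its background of 26.3. The fold and the rank therefore rest in part on a signal below background. The log2 difference of GSTU42 was 6.09 without non-meristematic array 1 and 4.53 without array 2. The gene has 1 probe set, whose suffix (_s_at) marks it as able to detect other transcripts too. Brightest probe sets of 8 of the 35 tested genes carry this mark. Of these, GSTU42 and GSTU41 passed, while GSTU17, GSTU28, GSTU30, GSTU48, GSTU53 and GSTL7 did not.

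LOC547583 (GSTU18) passed as higher on all 3 of its probe sets. On the brightest, the root tips gave 917.5, 853.5 and 381.2 and the other tissue 76.9 and 131.5, without overlap. GSTU18 was thus 6.65-fold higher in root meristem (log2 2.73 ± 0.45, adjusted p = 0.00406). Another gave a log2 difference of 3.83 ± 0.64. The last had both non-meristematic arrays below background and 2 of 3 root meristem arrays above it, and its size cannot be bounded above 1-fold. That last call was lost with signals below 16 set to 16 (log2 0.40), without root meristem array 3 (adjusted p = 0.0709) and without non-meristematic array 2 (0.0516).

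A pair of dimmer tau genes had signal in root tips, while both arrays of the other tissue were under background. GSTU43 gave 124.9, 69.2 and 34.0 in root meristem against 19.3 and 6.10 in the other tissue, at least 2.13-fold higher (adjusted p = 0.0283). This call was lost without root meristem array 1 (adjusted p = 0.0954), without root meristem array 2 (0.0907) and without non-meristematic array 2 (0.067). LOC548031 (GSTU16) gave 115.3, 40.3 and 16.8 against 1.30 and 4.60, with root meristem array 3 below its background. The computed bound of GSTU16 was 1.37-fold higher (limma adjusted p = 0.0192). It took array 3 at its measured 16.8 and so is not a strict bound. With signals below 16 set to 16 the adjusted p was 0.184. The lowest root meristem signal of each gene was under the background of 37 of non-meristematic array 1, so a gap between the groups is not established at the arrays' background.

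GSTU41 and GSTU47 passed by a small margin. GSTU41 gave 4344, 3364 and 2242 in root meristem against 1651 and 1475, so every root tip array was higher, by 2.05-fold on average (log2 1.04 ± 0.28, adjusted p = 0.0251). The call was lost without root meristem array 1 (log2 0.82) and without root meristem array 2 (adjusted p = 0.0853), without non-meristematic array 2 (log2 0.95) and after quantile normalization (log2 0.85). GSTU47 is taken up with its other probe sets below, since they ran the other way.

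**Figure D2:**
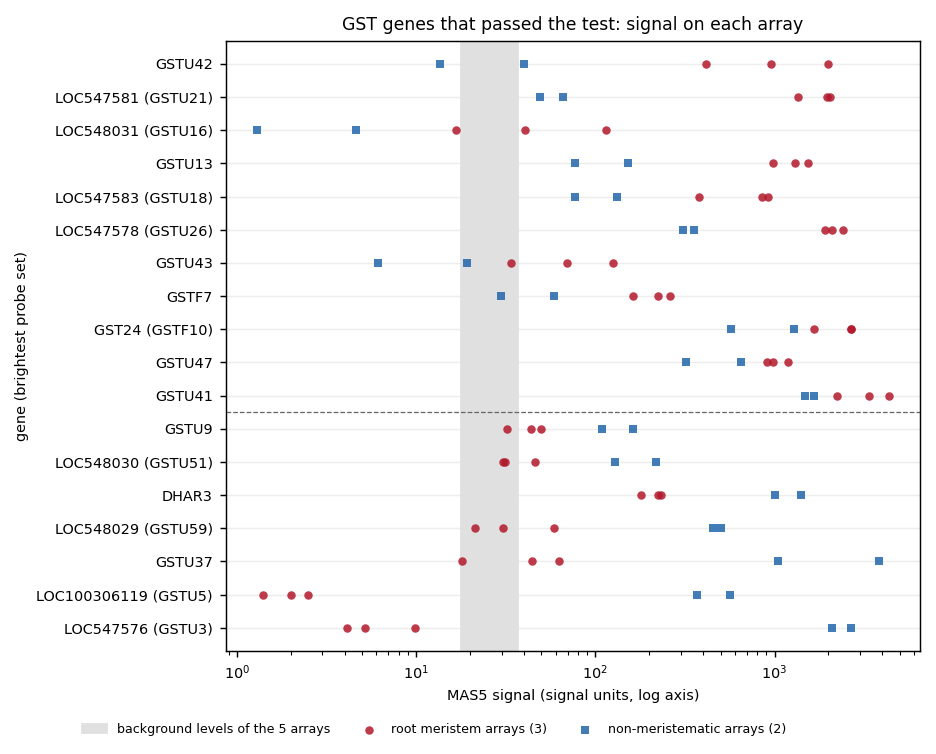
MAS5 signal (x axis, log scale) on each array for the 18 GST genes that passed, ordered by log2 difference, with root meristem arrays as circles and non-meristematic arrays as squares. The grey band spans the background levels from 17.9 to 37, and the dashed line parts the 11 higher genes from the 7 lower ones.

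The tau genes that fell in root meristem included a pair with no signal above background in any root tip sample. LOC547576 (GSTU3) gave 4.10, 9.90 and 5.20 in root meristem against 2658 and 2087 in the other tissue, so that the gene was bright in one tissue and at background in the other. It was at least 116-fold lower in root tips (limma adjusted p = 6e-05). LOC100306119 (GSTU5) gave 1.4, 2 and 2.5 against 561.6 and 369.9 and was at least 22.5-fold lower (adjusted p = 0.000201). The leaf and chloroplast markers were mixed in the same root tips. Rubisco activase, YABBY11 and YABBY12 were at background there (7.77 ± 2.33 SD for YABBY11, against 827 ± 302), and ATPC exceeded it on 1 array. By brightest probe set, CAB3 (208.5, 195.5 and 164.3), PETC (87.9, 93.9 and 110), PSAD and YABBY9 exceeded it in every root tip sample. The part of these markers in the GST values was not tested.

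Other tau genes were lower in root meristem, from non-meristematic signals of 109.4 up to 3846. GSTU37 gave 62.8, 44.6 and 18.0 in root meristem and 1046 and 3846 elsewhere, 54.3-fold lower (log2 -5.76 ± 0.69, adjusted p = 0.00131). Its non-meristematic arrays differed 3.68-fold from each other, and the log2 difference was -6.70 without array 1 and -4.82 without array 2. LOC548029 (GSTU59) gave 58.7, 30.6 and 21.4 against 499.7 and 454.6, 14.1-fold lower (log2 -3.82 ± 0.44, adjusted p = 0.00111). Both genes stayed above background on all root meristem arrays, GSTU37 on array 3 only just. LOC548030 (GSTU51) gave 31.3, 46.0 and 30.5 against 128.2 and 219.1 (log2 -2.25 ± 0.37, adjusted p = 0.00422). GSTU9 gave 49.9, 43.5 and 32.2 against 109.4 and 161.3 and was 3.22-fold lower (log2 -1.69 ± 0.34, adjusted p = 0.00925). With the replicate number as a block, the GSTU9 adjusted p was 0.0537. A second GSTU9 probe set did not pass (-1.14 ± 0.51), except without non-meristematic array 2 (-1.71).

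Another 10 tau genes were tested and did not pass. GSTU30 was near the threshold of size: its signals of 6494, 6775 and 6179 in root meristem lay above 3680 and 3826 in non-meristematic tissue, with a log2 difference of 0.79 ± 0.12 (adjusted p = 0.00299). The difference was thus larger than the spread between arrays while under the minimum of 1. GSTa (GSTU48) was bright on all arrays, with 2765, 4106 and 3607 against 2722 and 4226, groups that overlapped fully (log2 0.02, 95% interval -0.57 to 0.62). GSTU1 (log2 -0.92 ± 0.41) and GSTU28 (-0.68 ± 0.25) were nominally lower, and GST3 (GSTU53), GSTU27, GSTU58 and GSTU62 had fitted log2 differences of 0.61 to 0.84 with SEs of 0.32 to 0.94, though both non-meristematic arrays were below background for GSTU58 and GSTU62. After quantile normalization GSTU58 passed as higher (1.45). GSTU17 (-0.30 ± 0.32) and LOC100305870 (GSTU35, -0.17 ± 0.40) lay near 0. The brightest GSTU17 probe set and that of GSTU35 carry the same design cluster number, so their assignment is uncertain. The last tau gene, LOC100500361 (GSTU44), lay below background on all 5 arrays and was not tested.

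Phi class genes were few. GSTF7 gave 163.1, 225.2 and 260.7 in root meristem against 58.7 and 29.6 in the other tissue, with no overlap and a 5.09-fold difference (log2 2.35 ± 0.38, adjusted p = 0.00399). GST24 (GSTF10) gave 2673, 2678 and 1667 against 1276 and 569.2, 2.68-fold higher (log2 1.42 ± 0.38, adjusted p = 0.0249), with a narrow gap between the lowest root meristem and the highest non-meristematic array. Its call was lost without root meristem array 1 (adjusted p = 0.0785), without root meristem array 2 (0.0877) and without non-meristematic array 2, where the log2 difference was 0.84. The second GSTF10 probe set gave 1.17 ± 0.39 (adjusted p = 0.0514), and passed without root meristem array 3 (1.41) or non-meristematic array 1 (1.74). GSTF5 overlapped between the groups (log2 -0.25 ± 0.30), and LOC100812502 (GSTF11) lay below background on all 5 arrays.

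In the classes outside tau and phi, DHAR3 was the only gene that passed. Dehydroascorbate reductase returns oxidised ascorbate to its reduced form with glutathione as the donor. DHAR3 gave 232.9, 222.5 and 179.2 in root meristem against 1008 and 1414 in the other tissue, 5.68-fold lower with the groups far apart (log2 -2.51 ± 0.24, adjusted p = 0.000568). DHAR4, a second reductase gene that the naming rule does not take in, did not pass, with 2478 ± 65.8 against 2862 ± 848 (SD, n = 3 and 2; log2 -0.18 ± 0.20). The difference between these DHAR genes was not tested.

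The lambda gene GSTL3 gave 1211, 1136 and 994.9 in root meristem against 1951 and 2407 in the other tissue. These groups did not overlap, and the log2 difference of -0.96 ± 0.18 (adjusted p = 0.00678) fell short of the minimum size. Another GSTL3 probe set passed (log2 -1.55 ± 0.23, adjusted p = 0.00281) and the last did not (-0.76 ± 0.25). The brightest one passed as lower without root meristem array 1 (-1.03) or non-meristematic array 1 (-1.12). LOC100793025 (GSTL7) did not pass (0.55 ± 0.33), nor did GSTL1 (adjusted p = 0.0676), whose non-meristematic signals were below background. GSTL1 passed as higher without non-meristematic array 1, with no intensity trend and after quantile normalization, and its fitted difference was 0.48 with signals below 16 set to 16 (adjusted p = 0.243). No size is read from these fits, since the root meristem signals of 27.3, 22.8 and 17.8 were near background too. GSTT1, the theta gene, gave 266.2, 237.7 and 241.5 against 414.1 and 377 with no overlap, at a log2 difference of -0.67 ± 0.21 (adjusted p = 0.0394). The zeta genes GSTZ3 (log2 -0.16, 95% interval -0.77 to 0.44) and LOC100526991 (GSTZ2; 0.07, -0.63 to 0.77) overlapped between the groups. GSTIR, the gene matched by letters only, did not pass on either probe set (-0.49 ± 0.41 and -1.04 ± 0.40), and passed as lower on both without non-meristematic array 2 (-1.10 and -1.66).

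Probe sets of one GST gene did not always give the same answer. Of 12 genes with at least 2 tested probe sets, 5 had none that passed, 1 (GSTU18) had all pass in the same direction, 5 had some that passed and some that did not, and 1 had calls in opposite directions. That gene was GSTU47. Its brightest probe set gave 974.9, 1196 and 909.9 in root meristem against 318.8 and 646.0 in the other tissue, 2.25-fold higher (log2 1.17 ± 0.32, adjusted p = 0.0276). On a second probe set the order was turned round, with 185.4, 135.3 and 32.9 against 2098 and 504.3 (log2 -3.45 ± 0.86, adjusted p = 0.0195). Of the other probe sets of the gene, one gave -3.33 ± 0.77, and one was below background on all root meristem arrays and at least 6.68-fold lower. The log2 mean of the 4 probe sets, the one below background included, put GSTU47 lower (-2.57, adjusted p = 0.0169), and the higher call of the brightest was lost when any one array other than non-meristematic array 2 was left out, with a log2 difference of 0.66 without non-meristematic array 1. The direction of GSTU47 is therefore not settled by these probe sets.

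GSTU13 and GSTU41 differed between probe sets in whether they passed. A second GSTU13 probe set gave 141, 170.7 and 117.2 against 30.7 and 10.2, both below background, and was at least 4.53-fold higher. The remaining GSTU13 probe sets, from another design cluster, had log2 differences of 0.34 ± 0.38 and -0.52 ± 0.72, the latter -1.63 and lower without non-meristematic array 2. A second GSTU41 probe set was 2.30-fold higher (log2 1.20 ± 0.26), though not without root meristem array 2 (adjusted p = 0.0515), and the last was dim in both tissues (-0.09 ± 0.32). With the mean of all tested probe sets in place of the brightest, 9 GST genes were higher and 9 lower. GSTU47 turned to lower, GSTU41 no longer passed (0.71, adjusted p = 0.0638) and GSTL3 became lower (-1.09, adjusted p = 0.00778).

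**Figure D3:**
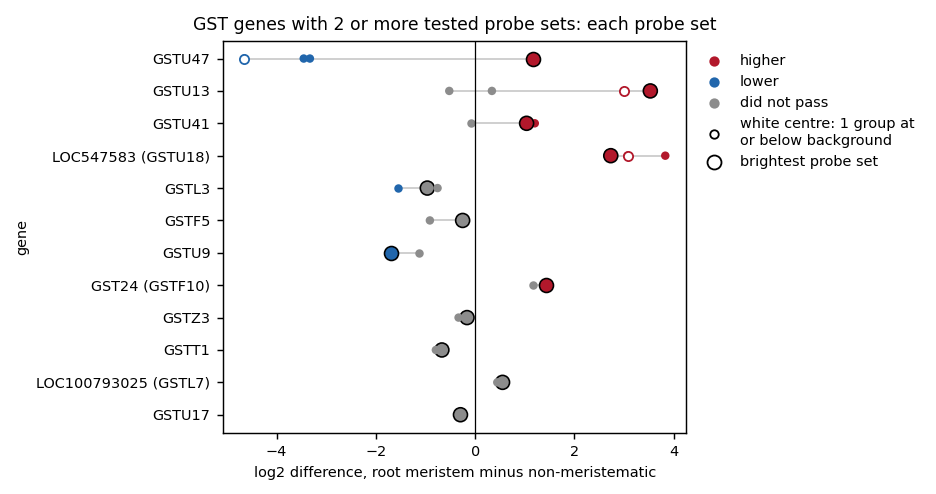
Log2 difference (root meristem minus non-meristematic, x axis) of each tested probe set of the 12 GST genes with 2 or more, with the brightest probe set of each gene circled. The GSTU47 probe sets lie on both sides of 0 and all 3 GSTU18 probe sets above it, and white centres mark probe sets with 1 group at or below background, whose position is a fitted value only.

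Many plant GST genes sit side by side in the genome, and 19 of the members fell into 7 groups of neighbours, taken as members at most 10 coding genes apart in the gene order of the RefSeq assembly Glycine_max_v4.0. In 5 of the 7 groups a gene that passed lay with one that did not. No such share was computed for neighbouring genes in general, so nothing particular to GST neighbours is read from it. LOC547576 (GSTU3), at background in root tips, lay next to GSTU1, which was measured in both tissues and did not pass. LOC548029 (GSTU59) was lower while its neighbour GSTU58 did not pass. In the run of GSTU16, GSTU17 and GSTU18, the outer genes were higher and GSTU17 did not pass. Of GSTU26, GSTU27, GSTU28 and GSTU30 only GSTU26 passed. GSTU37 was lower and GSTU41, with 2 coding genes between them, higher. The run from GSTU47 to GST3 (GSTU53) held a higher gene on its brightest probe set, a lower one, LOC548030 (GSTU51), and a pair that did not pass. The zeta genes GSTZ2 and GSTZ3 were adjacent and neither passed. By the mean of a gene's probe sets, GSTU47 was lower and GSTU41 did not pass, and no group then held both a higher and a lower gene. Differences between neighbours were not tested, and close copies can share probes.

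**Figure D4:**
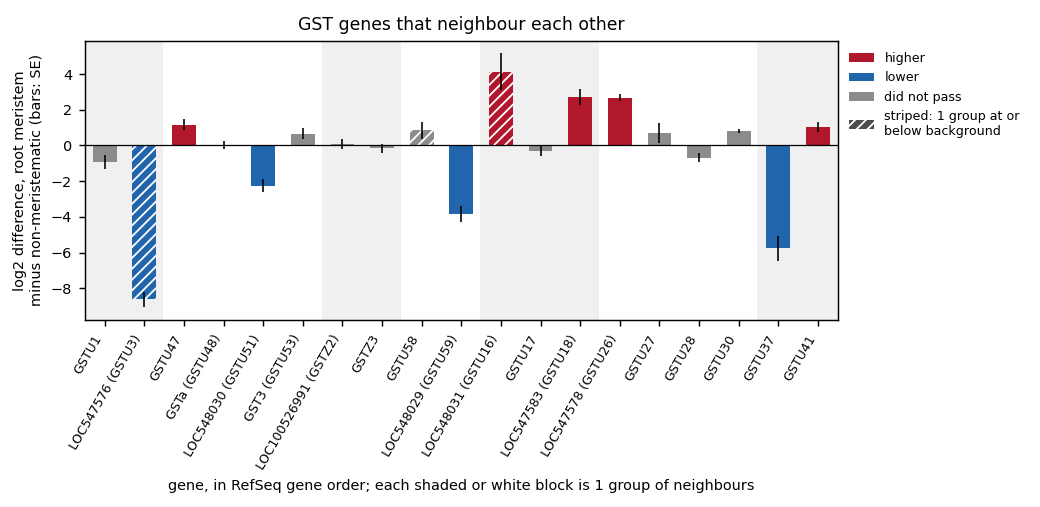
Log2 difference (root meristem minus non-meristematic, y axis, bars at ± SE) of the 19 GST genes that lie in 7 groups of neighbours, in gene order, each shaded or white block being 1 group. By brightest probe set 2 groups hold a higher and a lower gene, those of GSTU37 with GSTU41 and of GSTU47 with GSTU51, and by the mean of a gene's probe sets 0 do. Striped bars have 1 group at or below background.

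At the GST genes the root meristem arrays lay further apart than at genes in general, with a median ratio of highest to lowest array of 1.58 against 1.34. Root meristem array 3 was the lowest of the 3 at 25 of the 35 GST genes, against 40.8% of all tested genes, and array 1 the highest at 23, against 37.2%. After quantile normalization array 3 was lowest at 23 GST genes, against 36.7% of all genes, an alternative chosen after the data were seen. Among the 30 GST genes above background on all root meristem arrays, 8 differed by over 2-fold between the highest and lowest of these arrays (26.7%, against 10.9% of all such genes). GSTU42 spread most among these 30, while GSTF7 and GSTU13 were highest on array 3. GST genes are related in sequence and are not independent, so these shares are descriptions without a test.

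**Figure D5:**
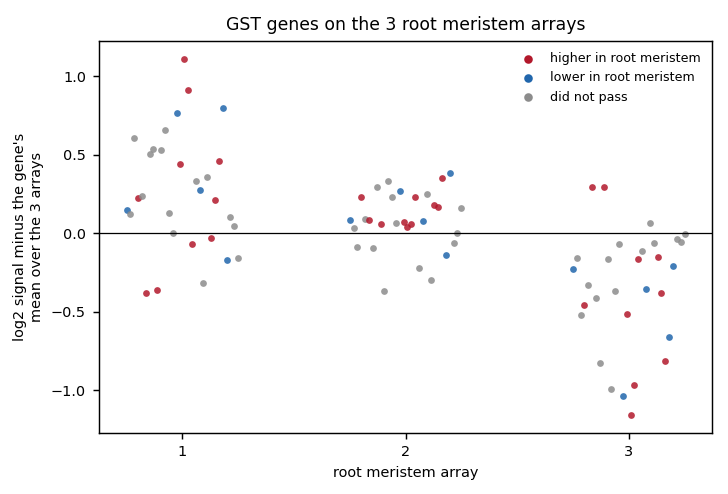
Log2 signal minus the gene's own mean (y axis) on root meristem arrays 1, 2 and 3 (x axis) for the 30 GST genes above background on all of them, coloured by call. Points on array 3 lie mostly below 0, with array 3 lowest for 22 of the 30 genes.

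Genes around the GSTs were read from lists matched by symbol. These held 16 genes that make, recycle or use glutathione or ascorbate, 8 that remove oxidants in other ways and 2 with TGA or STF names. All 26 were tested. Of the 16, root meristem was higher at 5 and lower at 2, while 9 failed the test. Their median difference was 0.19 on the log2 scale. Of the 8 oxidant genes 4 were lower and none higher. Over all 26 the counts were 5 higher and 6 lower, close to the 18.6% and 21% of all tested genes. The count of higher genes was 2 without root meristem array 2, 3 without root meristem array 1, and 3 without root meristem array 3. HGS, the homoglutathione synthetase gene, did not pass (1175 ± 123 against 939 ± 2.97; log2 0.32 ± 0.17), and neither did GR, a glutathione reductase gene (-0.54 ± 0.26), on its brightest probe set. A second GR probe set passed (-1.10 ± 0.23, lower). PCS1, a phytochelatin synthase that builds metal-binding peptides from glutathione-type thiols, was 2.62-fold higher (302 ± 21.0 against 116 ± 19.9, adjusted p = 0.0045).

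In the ascorbate cycle APX2, which encodes an ascorbate peroxidase, rose 2.84-fold (2375 ± 167 against 835 ± 37.6, adjusted p = 0.000703), while APX1 had a log2 difference of 0.43 ± 0.12. Glyoxalases, which use glutathione to clear methylglyoxal, went both ways. GLYII-6 was 2.22-fold higher on its brightest probe set, while a second one overlapped between the groups and did not pass (log2 0.62 ± 0.31). GLYI-19 and GLYI-6, both below background in non-meristematic tissue, were at least 3.07-fold and at least 1.83-fold higher. They passed narrowly (limma adjusted p = 0.041 and 0.0439), and the GLYI-6 bound is under the minimum size of the rule. GLYI-23 and GLYI-17 were lower (log2 -4.53 ± 0.71 and -2.45 ± 0.52), the former with non-meristematic arrays that differed widely (850 ± 818). The other 5 glyoxalase genes did not pass, among them GLYI-7 (log2 -0.003 ± 0.16), GLYII-8 (0.06 ± 0.18) and GLXI (0.51 ± 0.18). GLYI-20 was among them too, with a log2 difference of -2.37 ± 0.78 and no overlap between the groups (limma adjusted p = 0.0507).

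Among genes that remove oxidants without glutathione, the catalase gene CAT4 was 6.54-fold lower (797 ± 163 against 5143 ± 401, adjusted p = 0.000236), and CAT5, the superoxide dismutase gene SODB and PRX2B were lower too. Their log2 differences were -1.48 ± 0.39, -2.26 ± 0.30 and -1.16 ± 0.20. CAT1 (0.03 ± 0.19), SOD1 (0.52 ± 0.16) and PRX2 (0.99 ± 0.14) did not pass. PRX2 and PRX2B were placed by symbol alone, and their product is not stated in the sources used here. In the list matched on TGA and STF names, TGA24 (-0.50 ± 0.28) and STF2 (-1.09 ± 0.54) did not pass, nor did a second STF2 probe set (-0.21 ± 0.43). STF2 was placed by its name alone.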

How the data were processed

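The authors' deposited values were MAS5 signal intensities per probe set (linear, with MAS5 named per the submitters' processing notes). Which MAS5 version and which scaling target they used is not stated in the sources at hand. The table held 37593 probe sets on 5 arrays, 3 of root meristem and 2 of non-meristematic tissue, grouped by sample title. The 2% trimmed mean was 268 to 277, so no further scaling was applied. The number of arrays limits the precision.

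After a floor of 0.1 and a log2 transform, limma 3.58.1 in R 4.3.3 (lmFit, eBayes with an intensity trend) gave differences, SEs and Benjamini-Hochberg adjusted p-values over 30941 probe sets. The fit had 3 residual degrees of freedom and borrowed 3.68. For lower bounds, each dim array entered at its background level, or at the probe set's signal if that was higher. The fit and its thresholds were tried on simulated arrays with normal noise. That run left out the filter and the background rule, so these steps were not tested. Genes came from the platform annotation, updated by Entrez number with the RefSeq table of Glycine_max_v4.0, which served for names and gene order only. The 4 GST probe sets with several genes were left out of all counts. Promoter and protein sequences were not used here, so the planned motif and identity comparisons were not made. Alternatives changed scaling, filter, background, floor, variance model, array weights, block, probe set choice and test, and left out each array.

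All members were named or counted. From the pathway lists the text names genes that passed and up to 3 others per list with the highest signal, and GLYI-20 besides. Members, lists and tests were chosen with earlier results of these data known.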

Additional observations from a re-analysis of the deposited data

Results flagged for a closer look

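A strong signal lay outside the counted probe sets. A probe set that the annotation gives to a pair of genes at once, GSTU24 and HSP26-A, was left out for that reason. It gave 7404, 5211 and 3992 on the root tip arrays against 330.8 and 57.6 on the non-meristematic ones. Its log2 difference was 5.28 ± 0.69 (SE, limma adjusted p = 0.00172), with no overlap between the groups. Another probe set for the same pair, marked as able to detect other transcripts, gave 5.33 ± 0.65 (adjusted p = 0.00138), while the last of that pair's probe sets gave 0.58 ± 0.23 and did not pass. Which of the paired genes the signal belongs to was not tested.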

How the results depend on the processing

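Of 852 comparisons of a single probe set of the rule with its value under an alternative, 797 kept their side of the threshold, 39 lost the call and 16 gained one, and none that passed changed sign. A probe set that an alternative left untested is not in these counts, nor counted as a lost call. Thus GSTU16 was compared under 13 of the 16 alternatives, and GSTU3 and GSTU5 under 14 each. Averaging a gene's probe sets in place of taking the brightest gave 9 GST genes higher and 9 lower, turned GSTU47 from higher (1.17) to lower (-2.57), ended the higher call of GSTU41 (0.71) and made GSTL3 lower (-1.09). With limma's treat, which asks for differences beyond 1 on the log2 scale, there were 8 GST probe sets higher and 6 lower, 6 GST genes higher, 0 pathway genes higher and 3 lower, and 1161 higher and 2871 lower among all probe sets. Under treat, genes with differences only a little over 1 cannot pass by construction. Leaving out each array gave 8 to 16 GST probe sets higher and 6 to 11 GST genes higher, and 2 to 6 pathway genes higher. The pathway count was 3 with no intensity trend. The replicate block, on the 4 arrays whose numbers both groups share, gave 11 GST genes higher and 6 lower. Deviations of same-numbered arrays correlated at 0.0115 across probe sets. This compares 1 contrast per group, so it cannot decide whether same-numbered arrays share an origin. The titles state no shared origin, and the main fit did not use the number. GSTU9 lost its call under the block, and the cause was not tested. Quantile normalization, which moved the median of all probe sets from 0.07 to 0.30, gave 12 GST genes higher and 8 lower, and raised the higher share of all calls from 44.3% to 54.8%. Dim probe sets below about the background of 17.9 to 37 carry only bounds.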
